A study of Mus musculus with 6 samples.

Results

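Replicate 2 of mouse embryonic stem cells (ESCs) was compared with replicate 1, across genes and over both genotypes of the study. The comparison held 4 of the 6 mRNA-seq libraries of the series, Con-2 and OE-2 on one side and Con-1 and OE-1 on the other, with genotype as a term, so that it describes the difference between replicate numbers that Con and OE ESCs shared. Of the 19489 genes in the deposited table, 13494 had a mean of at least 0.5 FPKM over the 4 libraries and were tested (FPKM, fragment counts scaled for transcript length and depth). The libraries were picked by their replicate numbers alone and the genes by their mean level, not by any measured difference.

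Con ESCs carried the empty pLch3.7 vector and are labelled wild type, and OE ESCs carried the *Dppa3* coding sequence under the CAG promoter of the same vector and are labelled *Dppa3* over expression. Both were transfected, selected with puromycin and grown in serum medium with leukaemia inhibitory factor (LIF), with no differentiating treatment. The study made stable lines from picked colonies and also transiently transfected cells, from D3 and J1 ESCs, and no source used here says which of these gave the mRNA libraries. The strain entries are 129S2/SvPas for Con-1, 129S3/SvPas for Con-2, 129S5/SvPas for OE-1 and 129S6/SvPas for OE-2, so they differ between all 4 libraries and run in sample order. No source says whether a replicate number stands for a culture, a passage, a day or a sequencing run, and these cannot be told apart. Estimated counts were 18176939 in Con-1, 17988717 in OE-1, 17774852 in Con-2 and 17514330 in OE-2. Each side of the comparison is 1 Con and 1 OE library. The p-values rest on how far the replicate difference departed between Con and OE, which can be technical, and not on a spread between repeated libraries.

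ESCs in serum and LIF cycle fast, hold the pluripotency factors *Pou5f1*, *Sox2* and *Nanog* at high levels and meet much of their energy need by glycolysis. Their transcriptome moves with the state of the culture. Hypoxia-inducible factors raise glucose transporters, glycolytic enzymes and *Vegfa*, *Atf4* raises amino acid synthesis and stress genes such as *Ddit3*, and *Myc* raises genes for making ribosomes, all as textbook background and not as results of these libraries. The ESC label held in each library. All 7 ESC markers were above 1 FPKM in the 4 libraries, with summed levels of 3509 FPKM in Con-1, 3558 in OE-1, 3621 in Con-2 and 3547 in OE-2. The even sums hide changes of single markers. The most abundant marker was at 1238 FPKM in Con-1, 1277 in OE-1, 1701 in Con-2 and 1639 in OE-2. Among the others, *Pou5f1*, *Nanog* and *Zfp42* were lower in replicate 2, as given below, and *Sox2* and *Esrrb* did not pass the test.

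The promoter windows of 4 genes, 1 from each of 4 gene groups that the results turn on, are shown so that the letters the group's known regulator binds can be seen in place. They are RefSeq windows on GRCm38.p6, from 250 bases before to 50 bases after the annotated start, written 5′ to 3′ on the strand of the gene, for *Bnip3* at chr7:138909457-138909756 (minus strand), *Nupr1* at chr7:126625421-126625720 (minus strand), *Hmgcs1* at chr13:119690101-119690400 (plus strand) and *Mcm5* at chr8:75109259-75109558 (plus strand). Capitals mark every match on either strand of ACGTG in *Bnip3* (the core that hypoxia-inducible factors bind, shown with any base of an overlapping match), TGATGNAA in *Nupr1* (the joint element of Atf4 and C/EBP factors, N being any base), TCACNCCAC in *Hmgcs1* (the sterol regulatory element) and TTTGGCGC in *Mcm5* (an E2F element).
Bnip3: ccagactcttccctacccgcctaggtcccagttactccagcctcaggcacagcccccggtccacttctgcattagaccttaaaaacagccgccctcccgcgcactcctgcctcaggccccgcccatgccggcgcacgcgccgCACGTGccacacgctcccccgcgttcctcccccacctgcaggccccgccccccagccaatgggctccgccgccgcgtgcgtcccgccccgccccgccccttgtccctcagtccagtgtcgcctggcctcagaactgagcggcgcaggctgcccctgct
Nupr1: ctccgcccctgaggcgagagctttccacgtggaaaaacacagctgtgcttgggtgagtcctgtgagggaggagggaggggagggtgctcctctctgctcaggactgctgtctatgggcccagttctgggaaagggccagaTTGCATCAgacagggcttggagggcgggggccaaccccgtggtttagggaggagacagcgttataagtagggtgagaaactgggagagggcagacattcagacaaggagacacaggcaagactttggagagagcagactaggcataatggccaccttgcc
Hmgcs1: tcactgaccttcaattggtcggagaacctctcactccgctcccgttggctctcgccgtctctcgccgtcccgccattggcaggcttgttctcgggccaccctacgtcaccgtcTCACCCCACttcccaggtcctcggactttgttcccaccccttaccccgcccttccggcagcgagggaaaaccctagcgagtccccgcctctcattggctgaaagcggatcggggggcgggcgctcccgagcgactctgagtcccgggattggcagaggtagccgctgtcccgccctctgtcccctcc
Mcm5: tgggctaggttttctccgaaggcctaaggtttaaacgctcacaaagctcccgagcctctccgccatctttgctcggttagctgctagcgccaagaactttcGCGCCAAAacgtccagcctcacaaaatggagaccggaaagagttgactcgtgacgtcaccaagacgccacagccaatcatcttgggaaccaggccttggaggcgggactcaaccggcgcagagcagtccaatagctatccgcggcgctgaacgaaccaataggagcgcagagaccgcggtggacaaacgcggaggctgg
Each gene was the member of its group with the largest change past the test, at a mean of at least 5 FPKM, whose window held the letters.

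Such windows were found for 10756 of the genes tested, by gene number. ACGTG stood in at least 1 window of 21 of the 28 glycolysis and hypoxia genes with a window (75.0%), against 28.9% of all genes and 24.9% of all 13719 windows. TGATGNAA stood in 7 of 21 amino acid stress genes (33.3%), against 2.79% of all genes and 2.30% of windows. TTTGGCGC stood in 4 of 14 S phase genes (28.6%), against 1.08% of all genes and 0.904% of windows. TCACNCCAC stood in 1 of 16 cholesterol synthesis genes (6.25%), against 1.40% of all genes and 1.14% of windows. These shares describe the windows and were not tested. A match is not a binding site, and ACGTG also lies within the E-box CACGTG that many other factors bind.

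*Dppa3*, the gene overexpressed, followed the genotype labels and not the replicate number. It was at 6.09 FPKM in Con-1, 279 in OE-1, 3.89 in Con-2 and 279 in OE-2, so both OE libraries lay far above both Con libraries, and its difference between replicates did not pass the test (log2 fold change -0.22 ± 0.12 (SE), adjusted p = 0.126). Of all genes tested, 3511 (26.0%) were higher and 3425 (25.4%) lower in replicate 2 at an adjusted p under 0.05 (edgeR quasi-likelihood test, Benjamini-Hochberg). The difference exceeded 2-fold for 1025 of the higher and 293 of the lower genes, and 4-fold for 153 and 17. In the same fit the genotype term passed for 120 genes (0.889%), so the replicate number divided these libraries in more genes than *Dppa3* overexpression did. The common biological coefficient of variation is the fitted spread left between libraries after the terms of a fit. It was 0.283 with genotype alone and 0.0804 once the replicate number was a term. With 1 library per genotype and replicate number, 0.0804 reflects how far the replicate difference departed between Con and OE. It is not a spread between repeated libraries, and the p-values rest on it.

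Both genotypes showed the difference. Con-2 minus Con-1 and OE-2 minus OE-1, which share no library, correlated across the 13494 genes with a Pearson r of 0.79 and a Spearman rho of 0.86 (genes are not independent replicates, and no p is given), and 85.9% of genes had the same sign in both. A gene was over 1.5-fold higher in both genotypes in 1643 cases, over 1.5-fold lower in both in 813, and over 1.5-fold in opposite directions in 41. The difference was wider in Con ESCs. The SD across genes was 0.77 log2 units in Con and 0.57 in OE, and 83.1% of the genes that passed and had one direction moved further in Con. Whether the difference depends on genotype could not be tested with 1 library per cell of the design.

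**Figure D1:**
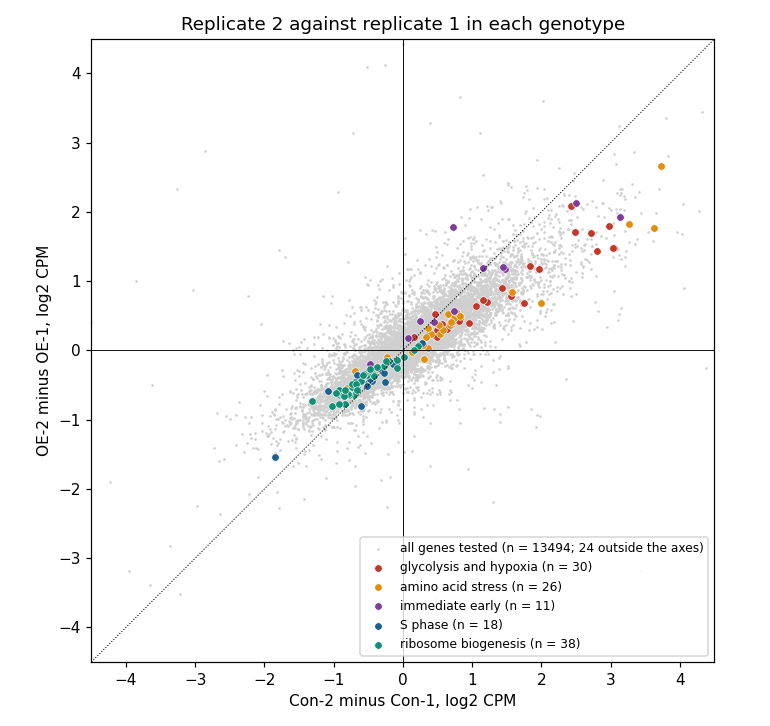
Difference between replicate 2 and replicate 1 in log2 CPM (counts scaled by library total and TMM factor), in Con ESCs on the x axis and OE ESCs on the y axis, 1 point a gene and colours for 5 gene lists, with a dotted line of equal difference. The genes follow a rising band (Pearson r 0.79), glycolysis and hypoxia genes lie to the upper right with the larger difference in Con, and ribosome biogenesis genes lie to the lower left.

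The calls depended on how strongly a gene was expressed. In the lowest quartile of mean level (0.5 to 3.15 FPKM) 35.5% of genes were higher and 8.29% lower in replicate 2, with a median log2 fold change of 0.37. In the highest quartile (25.3 to 7062 FPKM) 13.2% were higher and 44.1% lower, with a median of -0.16. The same tilt stood in each genotype, with medians of 0.40 in Con and 0.33 in OE for the lowest quartile and -0.16 and -0.15 for the highest. Genes of at least 1 FPKM numbered 11765 in Con-1 and 12018 in OE-1 against 12468 in Con-2 and 12577 in OE-2. Quartiles of transcript length and of GC content had medians between -0.01 and 0.05, autosomes between -0.04 and 0.08, and the X chromosome 0.13. Counts of weakly expressed groups are therefore read beside the lowest quartile. Total RNA per cell was not measured, so every difference is relative to the other genes of a library, and in bulk samples fewer cells of a type and less RNA per cell cannot be told apart. With upper-quartile scaling the split moved to 4390 higher and 2661 lower, and with limma on log2(FPKM + 0.5) to 4183 and 2492, the median of all genes then lying at 0.11 and 0.10 in place of 0.02. When only genes with a mean of at least 10 FPKM were fitted, 1776 were higher and 1778 lower. The excess of lower calls at high levels therefore depends on which genes set the scale. Fitted with the D7 pair to keep a spread, the calls fell from 2891 higher and 2772 lower to 805 and 762 without Con-1, 748 and 726 without Con-2, 1763 and 1779 without OE-1, and 2213 and 2079 without OE-2. Counts of list members with 1 library left out, given below, come from these fits and so include the D7 pair. The deposited counts of that pair are headed average read counts, and those of the other libraries read counts. The spread in these fits rests on the genotype gap in the D7 pair beside that in the complete replicate number. The drop in calls therefore does not describe the 4 libraries alone.

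**Figure D2:**
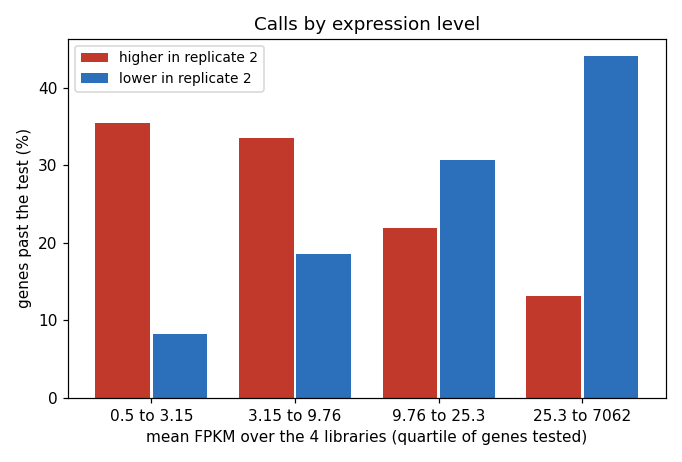
Share of genes past the test (y axis, %) in each quartile of mean FPKM (x axis), red for higher and blue for lower in replicate 2. Higher calls run from 35.5% in the lowest to 13.2% in the highest quartile, and lower calls from 8.29% to 44.1%.

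The largest increases included genes of stress and metabolism. *Ddit3*, a transcription factor of the integrated stress response, was at 4.29 FPKM in Con-1, 8.11 in OE-1, 71.9 in Con-2 and 58 in OE-2 (log2 fold change 3.17 ± 0.19 (SE), adjusted p = 1.20e-08). *Ndufa4l2*, a mitochondrial protein induced in hypoxia, was at 5.61 FPKM in Con-1, 22.2 in OE-1, 99.5 in Con-2 and 76 in OE-2 (log2 fold change 2.70 ± 0.31 (SE), adjusted p = 2.78e-06). *Nxph4*, a secreted neurexin-binding protein, was at 1.32 FPKM in Con-1, 4.13 in OE-1, 28 in Con-2 and 17.9 in OE-2 (log2 fold change 2.99 ± 0.30 (SE), adjusted p = 8.27e-07). In all 3 genes both replicate 2 libraries exceeded both replicate 1 libraries, and Con-1 was the lowest library. Where genes were named for a large change past the test, here and below, replicate numbers that lie apart follow in part from that choice. *Copz2*, a coat protein subunit of Golgi vesicles, had log2 fold change 2.42 ± 0.31 (SE), adjusted p = 8.77e-06. The glycolytic enzyme *Aldoc* (2.10 ± 0.19, adjusted p = 3.46e-07) was also among the 12 largest increases. *Txnip*, an inhibitor of glucose uptake that follows glucose supply, had the smallest adjusted p of the increases and was at 53.1 FPKM in Con-1, 63.7 in OE-1, 276 in Con-2 and 219.6 in OE-2 (log2 fold change 1.99 ± 0.10 (SE), adjusted p = 4.98e-09).

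The 12 largest decreases at 5 FPKM or more included 2 genes with uneven values. *Gm41885*, a predicted gene, was at 17.2 FPKM in Con-1, 10.4 in OE-1, 0 in Con-2 and 1.25 in OE-2 (log2 fold change -4.61 ± 0.62 (SE), adjusted p = 1.45e-05), and *Zfp967*, a zinc finger gene of a family with near-identical copies that may share reads, at 11.2 FPKM in Con-1, 6.78 in OE-1, 2.85 in Con-2 and 0.07 in OE-2 (log2 fold change -3.32 ± 0.31 (SE), adjusted p = 5.69e-07). Their values in the libraries of one replicate number differed by large ratios, so their fold changes are uncertain. *Mat2a*, the enzyme that makes S-adenosylmethionine, the methyl donor of DNA and histone methylation, was at 199.5 FPKM in Con-1, 185 in OE-1, 47.6 in Con-2 and 74.4 in OE-2 (log2 fold change -1.79 ± 0.12 (SE), adjusted p = 3.52e-08). *Ccnd1*, cyclin D1, was at 37.9 FPKM in Con-1, 29.7 in OE-1, 11.3 in Con-2 and 10.9 in OE-2 (log2 fold change -1.70 ± 0.10 (SE), adjusted p = 7.24e-09). *Setd1b*, a histone H3 lysine 4 methyltransferase, was at 11 FPKM in Con-1, 9.07 in OE-1, 2.59 in Con-2 and 4.02 in OE-2 (log2 fold change -1.72 ± 0.15 (SE), adjusted p = 3.04e-07). In these 3 genes neither replicate 2 library reached the level of either replicate 1 library. Among the other large decreases were the transcription factors *Foxd3* (-1.78 ± 0.17, adjusted p = 6.37e-07), *Msc* (-2.09 ± 0.22, adjusted p = 1.10e-06) and *Zfhx2* (-2.06 ± 0.16, adjusted p = 9.11e-08), the neurofilament genes *Ina* (-1.76 ± 0.16, adjusted p = 3.13e-07) and *Nefh* (-1.69 ± 0.10, adjusted p = 1.20e-08), the surface antigen gene *Ly6a* (-1.64 ± 0.16, adjusted p = 6.37e-07) and *Dusp27* (-1.66 ± 0.16, adjusted p = 6.37e-07). *Epop*, a partner of Polycomb repressive complex 2, fell with a log2 fold change of -1.48 ± 0.08 (adjusted p = 7.24e-09), among the 5 smallest p of the decreases.

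**Figure D3:**
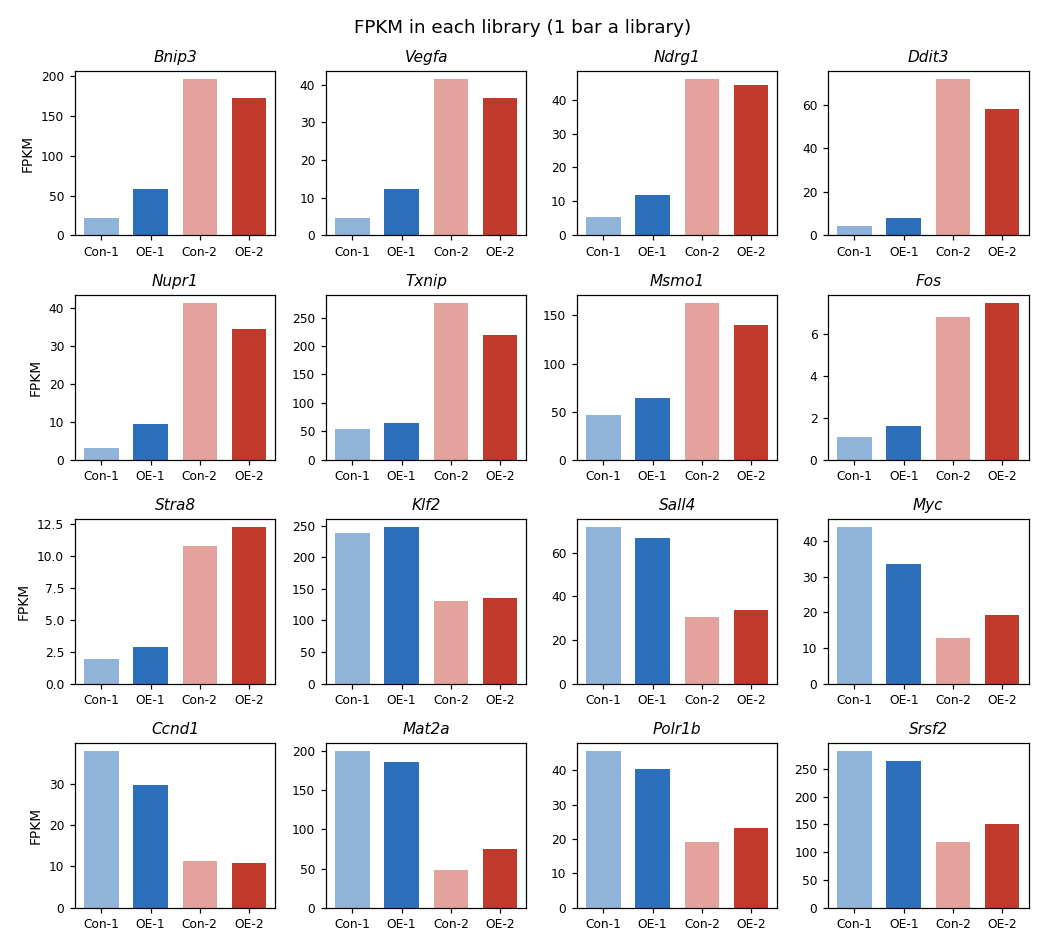
FPKM (y axis, from 0) of 16 genes in Con-1, OE-1, Con-2 and OE-2, 1 bar a library and no error bars. In every panel both replicate 2 bars lie on the same side of both replicate 1 bars, above them from *Bnip3* to *Stra8* and below them from *Klf2* to *Srsf2*. The 16 genes were picked among those that passed the test, so this follows in part from the choice. Of all genes that passed, 99.9% had the same direction in Con and OE.

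Glycolysis and hypoxia genes were higher in replicate 2 almost as a block. Of the list, 28 of 30 passed as higher and 1 as lower, against 26.0% and 25.4% of all genes, with a median log2 fold change of 0.76 (1.01 in Con and 0.59 in OE) where all genes had 0.02. All 30 members had one sign in both genotypes, and 28 moved further in Con. Only 1 of them lay in the lowest quartile of level. The glucose transporter *Slc2a1* was at 259 FPKM in Con-1, 321 in OE-1, 579.9 in Con-2 and 532 in OE-2 (log2 fold change 0.85 ± 0.08 (SE), adjusted p = 7.35e-07). *Hk2*, hexokinase, was at 30.5 FPKM in Con-1, 35.6 in OE-1, 54.3 in Con-2 and 51.2 in OE-2 (log2 fold change 0.58 ± 0.08 (SE), adjusted p = 2.10e-05). *Ldha*, which turns pyruvate to lactate, was at 934 FPKM in Con-1, 980.1 in OE-1, 1476 in Con-2 and 1353 in OE-2 (log2 fold change 0.47 ± 0.07 (SE), adjusted p = 2.71e-05). These 3 abundant transcripts rose by less than 2-fold. Some known targets of hypoxia-inducible factors rose more. *Bnip3*, a mitophagy receptor whose window is printed above, was at 22.1 FPKM in Con-1, 57.9 in OE-1, 197 in Con-2 and 173 in OE-2 (log2 fold change 2.23 ± 0.21 (SE), adjusted p = 6.01e-07). *Vegfa*, the angiogenic growth factor, was at 4.74 FPKM in Con-1, 12.2 in OE-1, 41.6 in Con-2 and 36.5 in OE-2 (log2 fold change 2.20 ± 0.21 (SE), adjusted p = 6.37e-07). *Ndrg1* was at 5.44 FPKM in Con-1, 11.9 in OE-1, 46.2 in Con-2 and 44.2 in OE-2 (log2 fold change 2.35 ± 0.17 (SE), adjusted p = 7.17e-08). OE-1 lay between Con-1 and the replicate 2 libraries in all 3. The carbonic anhydrase gene *Car9* (2.32 ± 0.31, adjusted p = 1.20e-05), the oxygen sensor *Egln3* (2.07 ± 0.20, adjusted p = 6.27e-07), the collagen prolyl hydroxylase *P4ha1* (2.08 ± 0.13, adjusted p = 1.20e-08), the mTORC1 inhibitor *Ddit4* (2.19 ± 0.15, adjusted p = 5.92e-08) and the oxidase of protein folding *Ero1l* (1.52 ± 0.11, adjusted p = 5.11e-08) rose as well. Of the oxidative phosphorylation genes 3 of 32 were higher and 6 lower in replicate 2, with a median log2 fold change of -0.03. Their first members *Ndufa2* (-0.05 ± 0.15, adjusted p = 0.809), *Cox4i1* (0.02 ± 0.07, adjusted p = 0.869) and *Atp5a1* (-0.01 ± 0.07, adjusted p = 0.915) did not pass. In fits with 1 library left out, the higher glycolysis and hypoxia genes numbered 14 without Con-1, 14 without Con-2, 26 without OE-1 and 21 without OE-2.

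**Figure D4:**
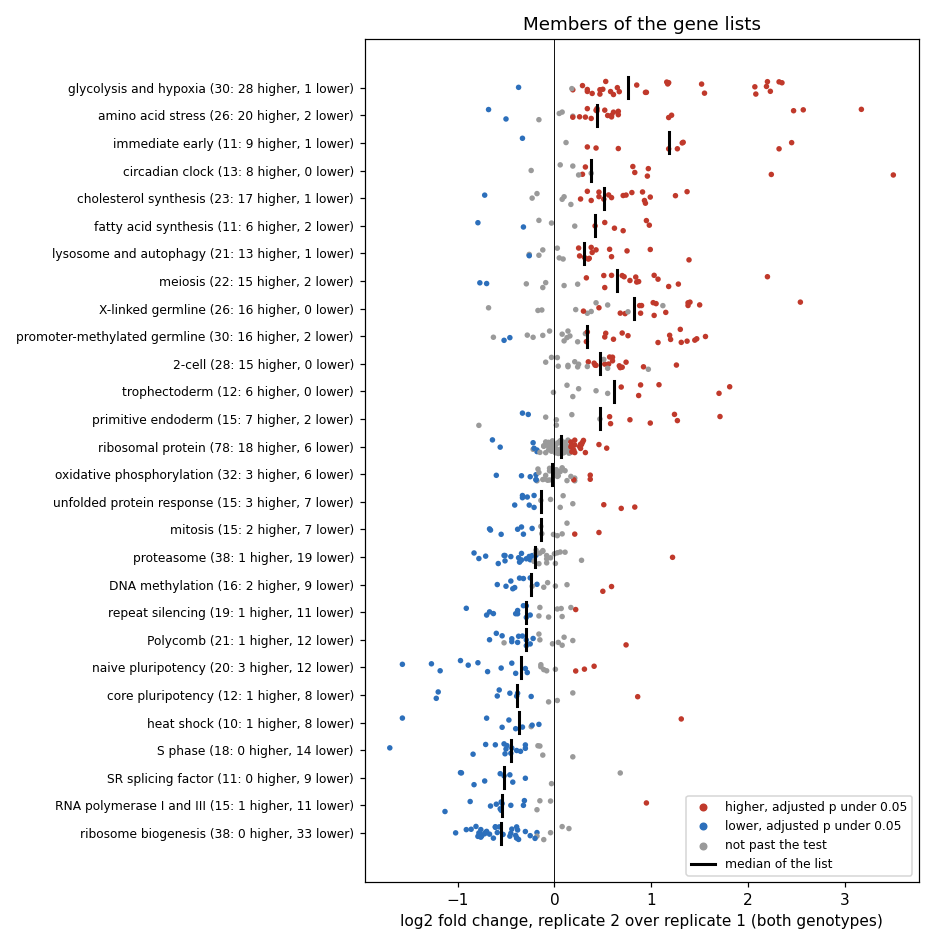
Log2 fold change of replicate 2 over replicate 1 (x axis) for the members of 28 gene lists (rows), 1 point a gene, red for higher, blue for lower and grey for not past the test, with a black bar at the list's median. Among the medians are 0.76 in glycolysis and hypoxia genes and 1.18 in immediate early genes, on the higher side, and -0.55 in ribosome biogenesis genes.

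Amino acid stress genes, the targets of Atf4, were higher in replicate 2 in 20 of 26 and lower in 2, with a median log2 fold change of 0.44 (0.56 in Con, 0.36 in OE), against 26.0% higher and 25.4% lower of all genes. *Atf4* mRNA itself was at 79.4 FPKM in Con-1, 112 in OE-1, 109 in Con-2 and 123 in OE-2 and did not pass (log2 fold change 0.19 ± 0.09 (SE), adjusted p = 0.067). *Asns*, asparagine synthetase, was at 218 FPKM in Con-1, 273 in OE-1, 375 in Con-2 and 373 in OE-2 (log2 fold change 0.52 ± 0.08 (SE), adjusted p = 3.81e-05). *Nupr1*, a stress-induced chromatin protein, was at 3.03 FPKM in Con-1, 9.45 in OE-1, 41.4 in Con-2 and 34.5 in OE-2 (log2 fold change 2.57 ± 0.28 (SE), adjusted p = 1.52e-06). OE-1 exceeded Con-1 in both targets, and both replicate 2 libraries exceeded OE-1. *Chac1*, which degrades glutathione, rose by 1.21 ± 0.23 log2 units (adjusted p = 3.81e-04), with 7.16 FPKM in OE-1 already above the 6.89 of Con-2, so its replicate groups overlapped. The pseudokinase *Trib3* (0.59 ± 0.13, adjusted p = 0.00136) and the secreted *Stc2* (1.18 ± 0.20, adjusted p = 1.04e-04) also rose. Of the genes of the unfolded protein response of the endoplasmic reticulum 3 of 15 were higher and 7 lower in replicate 2. These shares lie near those of the highest quartile of level, where 13.2% of all genes were higher and 44.1% lower, and the median level of the list (37.7 FPKM) is in that quartile. The chaperone *Hspa5* (-0.21 ± 0.07, adjusted p = 0.0171), *Xbp1* (-0.33 ± 0.10, adjusted p = 0.0085) and *Dnajb9* (-0.33 ± 0.12, adjusted p = 0.0334) were lower, while *Herpud1* (0.83 ± 0.14, adjusted p = 1.10e-04), *Sdf2l1* (0.69 ± 0.14, adjusted p = 4.94e-04) and *Dnajc3* (0.51 ± 0.12, adjusted p = 0.00182) were higher. The count of lower members of this list was 1 to 7 under other models and scalings, and with 1 library left out the list had 0 to 3 higher and 0 to 1 lower. Higher amino acid stress genes numbered 4 without Con-1, 4 without Con-2, 15 without OE-1 and 15 without OE-2.

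Cholesterol synthesis genes and lysosome genes had more members higher than lower in replicate 2, where 26.0% of all genes were higher and 25.4% lower. Of the cholesterol synthesis genes, 17 of 23 were higher and 1 lower in replicate 2, with a median log2 fold change of 0.51, and 21 of the 22 with one sign moved further in Con. *Msmo1*, a sterol oxidase, was at 46.8 FPKM in Con-1, 63.9 in OE-1, 163 in Con-2 and 140.1 in OE-2 (log2 fold change 1.37 ± 0.11 (SE), adjusted p = 1.56e-07). *Insig1*, the sterol-regulated retention factor of the pathway, was at 21.7 FPKM in Con-1, 27.1 in OE-1, 64.6 in Con-2 and 58.7 in OE-2 (log2 fold change 1.25 ± 0.10 (SE), adjusted p = 1.34e-07). Replicate 2 exceeded replicate 1 in both genotypes for both genes. Rises were smaller for the enzymes *Hmgcs1* (0.51 ± 0.08, adjusted p = 8.13e-05) and *Sqle* (0.27 ± 0.08, adjusted p = 0.0116). In fatty acid synthesis 6 of 11 were higher and 2 lower in replicate 2 and 3 did not pass (3 to 5 higher and 1 to 2 lower with 1 library left out). The synthase *Fasn* fell (log2 fold change -0.79 ± 0.07 (SE), adjusted p = 2.87e-07), the carboxylase *Acaca* (-0.03 ± 0.08, adjusted p = 0.743) did not pass, and the desaturases *Scd1* (0.98 ± 0.10, adjusted p = 1.42e-06) and *Scd2* (0.62 ± 0.09, adjusted p = 1.89e-05), the acetyl-CoA synthetase *Acss2* (0.95 ± 0.13, adjusted p = 1.89e-05) and *Me1* (0.71 ± 0.09, adjusted p = 6.55e-06) rose. Of the lysosome and autophagy genes, 13 of 21 were higher and 1 lower in replicate 2, with a median log2 fold change of 0.31. The membrane protein *Lamp1* (0.25 ± 0.07, adjusted p = 0.00593), the protease *Ctsd* (0.31 ± 0.07, adjusted p = 0.00175) and the autophagy receptor *Sqstm1* (0.39 ± 0.08, adjusted p = 9.02e-04) rose by small steps, and the sialidase *Neu1* (1.39 ± 0.15, adjusted p = 1.99e-06) and *Lamp2* (0.99 ± 0.13, adjusted p = 7.89e-06) by more. Higher cholesterol synthesis genes numbered 7 without Con-1, 7 without Con-2, 13 without OE-1 and 15 without OE-2. Lysosome and autophagy genes numbered 3 without Con-1, 3 without Con-2, 4 without OE-1 and 7 without OE-2.

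Immediate early genes, which answer serum and stress within minutes, were higher in 9 of 11 and lower in 1, with a median log2 fold change of 1.18 (0.74 in Con and 1.18 in OE), against 26.0% higher and 25.4% lower of all genes. *Fos* was at 1.1 FPKM in Con-1, 1.59 in OE-1, 6.82 in Con-2 and 7.5 in OE-2 (log2 fold change 2.32 ± 0.20 (SE), adjusted p = 3.04e-07). *Egr1* was at 12.6 FPKM in Con-1, 13 in OE-1, 22.5 in Con-2 and 47.6 in OE-2 (log2 fold change 1.27 ± 0.16 (SE), adjusted p = 6.91e-06). *Dusp1*, a phosphatase of stress kinases, was at 19.7 FPKM in Con-1, 23.5 in OE-1, 59.1 in Con-2 and 56.8 in OE-2 (log2 fold change 1.33 ± 0.10 (SE), adjusted p = 6.82e-08). *Egr1* was the one of these 3 in which OE-2 stood well above Con-2. *Jun* (1.18 ± 0.18, adjusted p = 4.51e-05), *Atf3* (2.45 ± 0.35, adjusted p = 2.31e-05), *Zfp36* (1.32 ± 0.13, adjusted p = 7.04e-07) and *Junb* (0.66 ± 0.09, adjusted p = 1.96e-05) rose too. In the circadian list 8 of 13 were higher and 0 lower in replicate 2 (4 to 7 higher and 0 lower with 1 library left out). It included the clock repressor *Bhlhe40* (2.24 ± 0.22, adjusted p = 7.95e-07), which hypoxia also induces, and *Per1* (0.81 ± 0.11, adjusted p = 1.43e-05), *Per3* (0.96 ± 0.15, adjusted p = 7.44e-05), *Tef* (0.97 ± 0.13, adjusted p = 9.31e-06) and *Ciart* (0.83 ± 0.15, adjusted p = 2.30e-04), while *Nr1d1* (-0.24 ± 0.14, adjusted p = 0.167) did not pass. The metallothioneins *Mt1* (1.02 ± 0.11, adjusted p = 1.32e-06) and *Mt2* (0.80 ± 0.08, adjusted p = 9.41e-07) and heme oxygenase *Hmox1* (0.47 ± 0.09, adjusted p = 2.51e-04) were higher, and the Nrf2 targets *Nqo1* (-0.76 ± 0.09, adjusted p = 5.28e-06) and *Gsr* (-0.71 ± 0.09, adjusted p = 6.23e-06) lower, so the list of metal and oxidative stress genes had 4 members higher and 6 lower of 13 (1 to 3 higher and 2 to 5 lower with 1 library left out). Higher immediate early genes numbered 6 without Con-1, 7 without Con-2, 6 without OE-1 and 7 without OE-2.

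Pluripotency genes were lower in replicate 2 more often than higher. Of the naive pluripotency genes 3 of 20 were higher and 12 lower in replicate 2, with a median log2 fold change of -0.35, and of the core genes 1 of 12 were higher and 8 lower in replicate 2, with a median log2 fold change of -0.38. All of them lay above the lowest quartile of level, and in the highest quartile 44.1% of all genes were lower. *Pou5f1*, the defining ESC factor, was at 683 FPKM in Con-1, 648 in OE-1, 623 in Con-2 and 575 in OE-2 (log2 fold change -0.24 ± 0.07 (SE), adjusted p = 0.00531). *Sox2* was at 247 FPKM in Con-1, 263 in OE-1, 267 in Con-2 and 256 in OE-2 (log2 fold change -0.06 ± 0.07 (SE), adjusted p = 0.494). *Nanog* was at 404 FPKM in Con-1, 471 in OE-1, 261 in Con-2 and 319 in OE-2 (log2 fold change -0.69 ± 0.07 (SE), adjusted p = 6.90e-07). Of these 3, *Nanog* showed the clear decrease in both genotypes, and *Sox2* did not pass. The naive factors *Klf4* (-0.11 ± 0.07, adjusted p = 0.212) and *Esrrb* (-0.14 ± 0.07, adjusted p = 0.113) did not pass either, and *Zfp42* fell with a log2 fold change of -0.44 ± 0.07 (adjusted p = 6.77e-05). Larger decreases were seen in *Klf2*, at 239 FPKM in Con-1, 248 in OE-1, 131 in Con-2 and 136 in OE-2 (log2 fold change -0.97 ± 0.07 (SE), adjusted p = 7.17e-08). *Sall4* was at 71.8 FPKM in Con-1, 66.8 in OE-1, 30.5 in Con-2 and 34 in OE-2 (log2 fold change -1.22 ± 0.08 (SE), adjusted p = 2.69e-08). *Prdm14*, which also acts in germ cells, was at 11.5 FPKM in Con-1, 13.8 in OE-1, 4.91 in Con-2 and 6.32 in OE-2 (log2 fold change -1.27 ± 0.13 (SE), adjusted p = 9.16e-07). In each of the 3 the replicate numbers stood apart and the genotypes lay near each other. *Jam2* (-1.57 ± 0.11, adjusted p = 4.06e-08), *Nr0b1* (-1.18 ± 0.12, adjusted p = 8.15e-07), *Zscan10* (-1.20 ± 0.09, adjusted p = 8.29e-08), *Lin28a* (-0.59 ± 0.08, adjusted p = 7.69e-06) and *Zfp281* (-0.57 ± 0.08, adjusted p = 3.61e-05) fell as well. Within the core list *Tdgf1*, the Nodal co-receptor Cripto, went the other way, at 498 FPKM in Con-1, 541 in OE-1, 1082 in Con-2 and 939 in OE-2 (log2 fold change 0.86 ± 0.08 (SE), adjusted p = 3.04e-07). Of the formative and primed genes, 2 of 14 were higher and 6 lower in replicate 2, with *Otx2* (-0.21 ± 0.12, adjusted p = 0.167) not passing, *Pou3f1* (0.69 ± 0.16, adjusted p = 0.00203) higher and *Dnmt3b* (-0.32 ± 0.07, adjusted p = 0.00141) and *Zic2* (-0.96 ± 0.12, adjusted p = 1.01e-05) lower. The formative and primed list had 0 to 1 higher and 1 to 2 lower with 1 library left out. Lower naive genes numbered 7 without Con-1, 7 without Con-2, 10 without OE-1 and 10 without OE-2. Lower core genes numbered 3 without Con-1, 2 without Con-2, 6 without OE-1 and 7 without OE-2.

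Signalling lists held calls in both directions, and over all genes 26.0% were higher and 25.4% lower. The shares in the Nodal and BMP list (23.8% and 33.3%) and in the FGF-ERK list (15.8% and 26.3%) lay near these. In LIF-Stat3 signalling 4 of 11 were higher and 1 lower in replicate 2. The feedback inhibitor *Socs3* was at 51.9 FPKM in Con-1, 67.5 in OE-1, 135 in Con-2 and 112 in OE-2 (log2 fold change 0.96 ± 0.11 (SE), adjusted p = 2.22e-06), whereas *Stat3* (0.11 ± 0.08, adjusted p = 0.236) and *Lifr* (0.15 ± 0.08, adjusted p = 0.111) did not pass. In Nodal and BMP signalling 5 of 21 were higher and 7 lower in replicate 2. *Nodal* was at 42.4 FPKM in Con-1, 35.2 in OE-1, 16.4 in Con-2 and 25.2 in OE-2 (log2 fold change -1.02 ± 0.14 (SE), adjusted p = 2.21e-05), and its target *Lefty1* (-1.13 ± 0.24, adjusted p = 8.50e-04) was lower too. *Lefty2* was at 18.5 FPKM in Con-1, 13.3 in OE-1, 9.77 in Con-2 and 13.5 in OE-2 (log2 fold change -0.54 ± 0.17 (SE), adjusted p = 0.012), so that it differed in Con and hardly in OE. In FGF-ERK signalling 3 of 19 were higher and 5 lower in replicate 2. The ERK feedback genes *Dusp6* (0.18 ± 0.12, adjusted p = 0.214) and *Spry4* (0.03 ± 0.10, adjusted p = 0.849) did not pass and moved in opposite directions in the genotypes. In Wnt signalling 2 of 13 were higher and 6 lower in replicate 2, with the feedback genes *Axin2* (-0.57 ± 0.13, adjusted p = 0.00154) and *Notum* (-1.63 ± 0.16, adjusted p = 6.37e-07) and the repressor *Tcf7l1* (-1.19 ± 0.12, adjusted p = 7.04e-07) lower and *Lef1* (1.33 ± 0.23, adjusted p = 1.50e-04) higher. In Notch signalling 4 of 12 were higher and 2 lower in replicate 2. The ligand *Dll1* had the largest fold change of that list, at 0.19 FPKM in Con-1, 0.4 in OE-1, 3.52 in Con-2 and 1.84 in OE-2 (log2 fold change 3.07 ± 0.34 (SE), adjusted p = 1.98e-06). With 1 library left out, LIF-Stat3 signalling had 1 to 4 higher and 0 to 1 lower. Nodal and BMP signalling then had 0 to 2 higher and 0 to 6 lower, and FGF-ERK signalling 1 to 2 higher and 1 to 4 lower. The counts were 1 to 2 higher and 2 to 4 lower for Wnt and 2 to 3 higher and 0 lower for Notch signalling.

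Most S phase genes were lower in replicate 2. None of the 18 S phase genes was higher and 14 were lower (in the highest quartile of level, 44.1% of all genes were), with a median log2 fold change of -0.44 and one sign in both genotypes for all 18. The replication helicase gene *Mcm2* was at 151 FPKM in Con-1, 138 in OE-1, 114 in Con-2 and 106 in OE-2 (log2 fold change -0.49 ± 0.07 (SE), adjusted p = 2.20e-05). The polymerase clamp *Pcna* was at 319 FPKM in Con-1, 313 in OE-1, 251 in Con-2 and 245 in OE-2 (log2 fold change -0.45 ± 0.07 (SE), adjusted p = 6.24e-05). *Ccne1*, cyclin E1, was at 165 FPKM in Con-1, 127 in OE-1, 83.7 in Con-2 and 89.9 in OE-2 (log2 fold change -0.84 ± 0.09 (SE), adjusted p = 2.55e-06). The 2 replication genes differed by less than 1.5-fold and yet replicate 1 and replicate 2 did not overlap. *Mcm5* (-0.52 ± 0.07, adjusted p = 9.70e-06), whose window is printed above, and *Cdc6* (-0.61 ± 0.08, adjusted p = 1.62e-05) were also lower. Of the mitosis genes 2 of 15 were higher and 7 lower in replicate 2, near the shares of the highest quartile (0 to 1 higher and 3 to 4 lower with 1 library left out), with *Ccnb1* (-0.34 ± 0.07, adjusted p = 0.00122), *Cdc20* (-0.66 ± 0.08, adjusted p = 4.41e-06) and *Kif20a* (-0.67 ± 0.08, adjusted p = 2.42e-06) lower and *Mki67* (0.21 ± 0.07, adjusted p = 0.0176) and *Bub1* (0.46 ± 0.08, adjusted p = 2.01e-04) higher. *Myc* was at 43.9 FPKM in Con-1, 33.5 in OE-1, 12.7 in Con-2 and 19.3 in OE-2 (log2 fold change -1.38 ± 0.15 (SE), adjusted p = 2.22e-06). *Mycn* was at 50.6 FPKM in Con-1, 42.1 in OE-1, 19.9 in Con-2 and 21.7 in OE-2 (log2 fold change -1.25 ± 0.10 (SE), adjusted p = 1.37e-07). Both Myc family genes were lower in each replicate 2 library than in either replicate 1 library. Lower S phase genes numbered 8 without Con-1, 3 without Con-2, 9 without OE-1 and 11 without OE-2.

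After these values were seen, 4 lists were added to describe the machinery of RNA and protein production, and they are given as description. Of ribosome biogenesis genes 0 of 38 were higher and 33 lower, with a median log2 fold change of -0.55. The median levels of the 4 lists lay between 22.4 and 129 FPKM, and in the highest quartile of level, which starts at 25.3 FPKM, 13.2% of all genes were higher and 44.1% lower. The nucleolar protein *Nop56* was at 261 FPKM in Con-1, 237 in OE-1, 146 in Con-2 and 159 in OE-2 (log2 fold change -0.78 ± 0.08 (SE), adjusted p = 7.04e-07). *Fbl* (-0.39 ± 0.07, adjusted p = 3.48e-04), *Imp4* (-1.02 ± 0.11, adjusted p = 2.31e-06) and *Bysl* (-0.91 ± 0.09, adjusted p = 5.83e-07) were lower too. Of the genes of RNA polymerases I and III 1 of 15 were higher and 11 lower in replicate 2. *Polr1b*, a large subunit of RNA polymerase I, was at 45.7 FPKM in Con-1, 40.3 in OE-1, 19.2 in Con-2 and 23.1 in OE-2 (log2 fold change -1.13 ± 0.10 (SE), adjusted p = 2.87e-07), and the one subunit gene to rise was *Polr3gl* (0.95 ± 0.15, adjusted p = 4.86e-05). Of the SR splicing factors 0 of 11 were higher and 9 lower in replicate 2, with a median log2 fold change of -0.52. *Srsf2* was at 282 FPKM in Con-1, 264 in OE-1, 119 in Con-2 and 150.2 in OE-2 (log2 fold change -0.96 ± 0.08 (SE), adjusted p = 2.01e-07). *Srsf3* (-0.97 ± 0.08, adjusted p = 2.87e-07) and *Srsf6* (-0.83 ± 0.08, adjusted p = 6.37e-07) moved alike, and *Srsf11* (-0.03 ± 0.07, adjusted p = 0.783) did not pass. Of the proteasome genes 1 of 38 were higher and 19 lower in replicate 2, and this share of lower genes (50%) is near that of the highest quartile. The proteasome list had 0 higher and 5 to 12 lower with 1 library left out. The SR list then had 0 higher and 5 to 8 lower, and the polymerase list 0 to 1 higher and 4 to 8 lower. Of the genes of the ribosomal proteins themselves 18 of 78 were higher and 6 lower in replicate 2, with a median log2 fold change of 0.07. Their count of higher members ran from 8 to 37 over other models and scalings. It was 45 when only genes of at least 10 FPKM were fitted and 0 to 5 with 1 library left out. Their small differences cannot be read without a fixed scale. Heat shock genes were lower in 8 of 10 and higher in 1. *Hsph1*, a chaperone of the Hsp110 family, was at 72.1 FPKM in Con-1, 57.9 in OE-1, 22.6 in Con-2 and 24.7 in OE-2 (log2 fold change -1.57 ± 0.10 (SE), adjusted p = 1.62e-08). *Hspa8* (-0.70 ± 0.07, adjusted p = 6.97e-07) and *Hspd1* (-0.47 ± 0.07, adjusted p = 2.54e-05) were lower too, and the stress-inducible *Hspa1a* (1.31 ± 0.22, adjusted p = 1.14e-04), which has a near-identical copy that may share its reads, was higher. *Hspa1a* was at 0.94 to 3.44 FPKM. The copy, *Hspa1b*, was at 5.22 FPKM in Con-1, 5.26 in OE-1, 5.07 in Con-2 and 4.44 in OE-2. It did not pass (log2 fold change -0.24 ± 0.15 (SE), adjusted p = 0.197), so the rise of *Hspa1a* is uncertain. *Actb*, cytoplasmic actin and a common reference gene, was at 993 FPKM in Con-1, 848 in OE-1, 475 in Con-2 and 518 in OE-2 (log2 fold change -0.98 ± 0.08 (SE), adjusted p = 1.37e-07). Lower ribosome biogenesis genes numbered 19 without Con-1, 17 without Con-2, 25 without OE-1 and 30 without OE-2. Lower heat shock genes numbered 3 without Con-1, 2 without Con-2, 5 without OE-1 and 4 without OE-2.

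Silencing factors were lower in part. Of the repeat silencing genes 1 of 19 were higher and 11 lower in replicate 2, of the Polycomb genes 1 of 21 were higher and 12 lower in replicate 2, and of the DNA methylation genes 2 of 16 were higher and 9 lower in replicate 2. Medians were -0.29, -0.29 and -0.24. Most members were in the upper part of the level range, where lower calls were common (44.1% in the highest quartile and 30.7% in the third). When only genes of at least 10 FPKM were fitted, 2 of 18 repeat silencing genes were higher and 5 lower. The counts were then 4 higher and 7 lower of 19 Polycomb genes and 1 higher and 6 lower of 13 DNA methylation genes. With DESeq2, 6 repeat silencing genes were lower. *Trim28*, the corepressor of KRAB zinc finger proteins, was at 759 FPKM in Con-1, 661 in OE-1, 405 in Con-2 and 398 in OE-2 (log2 fold change -0.91 ± 0.07 (SE), adjusted p = 7.95e-08). *Setdb1*, its histone H3 lysine 9 methyltransferase partner, was at 48.5 FPKM in Con-1, 48.6 in OE-1, 30.9 in Con-2 and 33.2 in OE-2 (log2 fold change -0.70 ± 0.08 (SE), adjusted p = 1.73e-06). *Dnmt1*, the maintenance DNA methyltransferase, was at 80.9 FPKM in Con-1, 82.2 in OE-1, 77 in Con-2 and 77.3 in OE-2 (log2 fold change -0.18 ± 0.07 (SE), adjusted p = 0.0366). *Trim28* moved furthest of the 3 and *Dnmt1* was close to level. *Dnmt3a* (-0.11 ± 0.08, adjusted p = 0.258), *Dnmt3l* (0.01 ± 0.07, adjusted p = 0.888), *Kdm1a* (0.07 ± 0.07, adjusted p = 0.467), *Ezh2* (0.19 ± 0.08, adjusted p = 0.0524) and *Suz12* (0.08 ± 0.07, adjusted p = 0.388) did not pass, while *Eed* (-0.44 ± 0.08, adjusted p = 1.53e-04), *Kdm2b* (-0.67 ± 0.09, adjusted p = 1.46e-05) and *Chaf1a* (-0.67 ± 0.08, adjusted p = 5.69e-06) were lower. *Ezh1* was higher (log2 fold change 0.74 ± 0.10 (SE), adjusted p = 2.19e-05). Lower repeat silencing genes numbered 3 without Con-1, 4 without Con-2, 5 without OE-1 and 8 without OE-2. Polycomb genes numbered 2 without Con-1, 2 without Con-2, 4 without OE-1 and 8 without OE-2. DNA methylation genes numbered 3 without Con-1, 2 without Con-2, 5 without OE-1 and 5 without OE-2.

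Lists of germline and 2-cell genes had more members higher than lower in replicate 2. Between 5 and 13 members of each did not pass. Of the meiosis genes 15 of 22 were higher and 2 lower in replicate 2, of the X-linked germline genes 16 of 26 and 0, of germline genes silenced by promoter methylation 16 of 30 and 2, and of the 2-cell genes 15 of 28 and 0. Medians were 0.65, 0.82, 0.33 and 0.47. In the lowest quartile of level 35.5% of all genes were higher, in the second 33.5%, in the third 21.9% and in the highest 13.2%. The lowest quartile held 7, 9, 4 and 9 members of these lists. Their median levels were 6.6, 4.38, 11.7 and 6.29 FPKM. Of the promoter-methylated list, 17 members had a mean of at least 10 FPKM. *Stra8*, the switch to meiosis, was at 1.96 FPKM in Con-1, 2.84 in OE-1, 10.8 in Con-2 and 12.2 in OE-2 (log2 fold change 2.20 ± 0.19 (SE), adjusted p = 3.04e-07). *Dazl*, a germ cell RNA-binding protein, was at 7.65 FPKM in Con-1, 13.9 in OE-1, 18 in Con-2 and 29.5 in OE-2 (log2 fold change 1.07 ± 0.11 (SE), adjusted p = 7.18e-07). *Sycp3*, of the synaptonemal complex, was at 7.69 FPKM in Con-1, 11.7 in OE-1, 29.4 in Con-2 and 26.6 in OE-2 (log2 fold change 1.45 ± 0.16 (SE), adjusted p = 1.98e-06). *Dazl* was also higher in OE than in Con within each replicate number, and so was *Stra8*, by less. *Sycp3* was higher in OE-1 than in Con-1 and lower in OE-2 than in Con-2. *Smc1b* (1.28 ± 0.12, adjusted p = 3.93e-07), *Rec8* (0.33 ± 0.13, adjusted p = 0.0403) and *Taf7l* (1.31 ± 0.16, adjusted p = 7.06e-06) rose, and *Ddx4* (0.24 ± 0.10, adjusted p = 0.0678) did not pass. The X-linked *Xlr3a* was at 10.6 FPKM in Con-1, 24.6 in OE-1, 22.8 in Con-2 and 39.3 in OE-2 (log2 fold change 0.73 ± 0.13 (SE), adjusted p = 2.10e-04), so Con-2 and OE-1 overlapped. *Usp26* was at 1.35 FPKM in Con-1, 2.85 in OE-1, 4.03 in Con-2 and 8.43 in OE-2 (log2 fold change 1.50 ± 0.13 (SE), adjusted p = 3.14e-07). Members of these X-linked families and of the Zscan4 family have near-identical copies, and reads may have been split between them. *Zscan4f*, of the 2-cell Zscan4 cluster, was at 37 FPKM in Con-1, 52 in OE-1, 64.7 in Con-2 and 94.7 in OE-2 (log2 fold change 0.74 ± 0.08 (SE), adjusted p = 1.91e-06). *Zscan4c* was at 14.4 FPKM in Con-1, 18.2 in OE-1, 19.3 in Con-2 and 33.2 in OE-2 (log2 fold change 0.56 ± 0.12 (SE), adjusted p = 8.76e-04). Both were higher in replicate 2 by less than 2-fold, and *Zscan4c* by more in OE. Without the genotype term the higher members were 7 of the 2-cell list and 6 of the X-linked list. Higher 2-cell genes numbered 10 without Con-1, 6 without Con-2, 5 without OE-1 and 5 without OE-2. X-linked germline genes numbered 6 without Con-1, 7 without Con-2, 11 without OE-1 and 8 without OE-2. Meiosis genes numbered 4 without Con-1, 4 without Con-2, 10 without OE-1 and 7 without OE-2. Promoter-methylated germline genes numbered 6 without Con-1, 11 without Con-2, 10 without OE-1 and 6 without OE-2. The E-box CACGTG, described in promoters of methylated germline genes, stood in windows of 12 of 28 promoter-methylated germline genes (42.9%), 4 of 18 meiosis genes (22.2%) and 1 of 24 X-linked germline genes (4.17%), against 11.8% of all genes.

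Genes of other lineages had median levels from 0.695 to 6.49 FPKM by list, with single members far above. In the lowest quartile of level 35.5% of all genes were higher and 8.29% lower, and in the second 33.5% and 18.5%. In the trophectoderm list, with 4 members in the lowest quartile, 6 of 12 were higher and 0 lower in replicate 2. The higher members numbered 3 without Con-1, 2 without Con-2, 3 without OE-1 and 6 without OE-2. *Krt19*, a keratin, was at 8.81 FPKM in Con-1, 15 in OE-1, 44.6 in Con-2 and 44.5 in OE-2 (log2 fold change 1.81 ± 0.15 (SE), adjusted p = 2.52e-07). *Hand1* (1.70 ± 0.25, adjusted p = 2.70e-05) and *Krt18* (0.89 ± 0.13, adjusted p = 3.81e-05) rose, while *Tfap2c* (-0.01 ± 0.13, adjusted p = 0.933), which ESCs also express, did not pass. In the primitive endoderm list, with 9 members in the lowest quartile, 7 of 15 were higher and 2 lower in replicate 2, which is not far from the share of that quartile. The higher members numbered 2 with DESeq2, 0 without Con-1, 0 without Con-2, 3 without OE-1 and 5 without OE-2. Of its genes, *Pdgfra* (1.24 ± 0.26, adjusted p = 7.73e-04) and *Hnf4a* (1.27 ± 0.23, adjusted p = 2.54e-04) were higher and *Gata4* (0.47 ± 0.32, adjusted p = 0.227) did not pass. Of 38 Hox genes 6 were expressed enough to be tested, all in the lowest quartile of level, and 5 of these were higher. In the collagen and fibroblast list 6 of 10 were higher and 0 lower in replicate 2, with *Loxl2* (1.75 ± 0.15, adjusted p = 3.17e-07) and *Mmp2* (1.22 ± 0.13, adjusted p = 1.49e-06) among them. Of the early mesendoderm genes, 2 of 3 were higher and 0 lower in replicate 2, with *Eomes* (0.82 ± 0.16, adjusted p = 3.69e-04) and *Fgf8* (1.70 ± 0.58, adjusted p = 0.0215) higher. In the neural list 2 of 5 were higher and 2 lower in replicate 2, and there *Tubb3* was at 99.8 FPKM in Con-1, 98.6 in OE-1, 42.9 in Con-2 and 50.9 in OE-2 (log2 fold change -1.18 ± 0.09 (SE), adjusted p = 7.17e-08). With 1 library left out there were 1 to 4 Hox, 3 to 5 collagen and fibroblast, 0 to 1 early mesendoderm and 1 to 2 neural genes higher.

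Defining markers of cells that an ESC culture could hold were summed for each library. The 9 fibroblast or feeder markers summed to 32.7 FPKM in Con-1, 38.9 in OE-1, 56.6 in Con-2 and 51.9 in OE-2, and *Thy1*, a surface antigen, alone was at 30.8 FPKM in Con-1, 36.9 in OE-1, 53 in Con-2 and 49 in OE-2. The 5 trophectoderm markers summed to 2.47 FPKM in Con-1, 3.06 in OE-1, 6.26 in Con-2 and 5.34 in OE-2, the 6 primitive endoderm markers to 2.98 FPKM in Con-1, 3 in OE-1, 4.4 in Con-2 and 3.74 in OE-2, the 4 neural markers to 0.82 FPKM in Con-1, 0.81 in OE-1, 0.59 in Con-2 and 0.81 in OE-2 and the 5 blood and endothelium markers to 19.5 FPKM in Con-1, 21 in OE-1, 26.5 in Con-2 and 21.9 in OE-2. No marker of these lists was at 0 in all 4 libraries, and none of the trophectoderm, primitive endoderm or neural markers exceeded 4.42 FPKM. All of these sums except the neural one were higher in both replicate 2 libraries than in both replicate 1 libraries, the blood and endothelium sum by little in OE. Their part in the results was not tested.

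The other lists are given by their counts, to be read beside 26.0% higher and 25.4% lower of all genes. The counts were 9 higher and 4 lower of 21 for p53 targets and 5 higher and 4 lower of 22 for DNA repair. They were 8 higher and 4 lower of 17 for the interferon response and 8 higher and 7 lower of 25 for imprinted genes. The shares for DNA repair (22.7% and 18.2%) and imprinted genes (32% and 28%) lay near those of all genes. Leaving out 1 library gave 2 to 5 higher and 1 to 4 lower for p53 targets and 0 to 1 higher and 1 to 4 lower for DNA repair. It gave 1 to 5 higher and 0 to 1 lower for the interferon response and 3 to 6 higher and 1 to 5 lower for imprinted genes. *Trp53*, listed with its targets, was at 146 FPKM in Con-1, 124 in OE-1, 65.6 in Con-2 and 70.2 in OE-2 (log2 fold change -1.08 ± 0.09 (SE), adjusted p = 1.37e-07), whereas the target *Cdkn1a* (0.40 ± 0.09, adjusted p = 9.77e-04) was higher and *Mdm2* (-0.03 ± 0.08, adjusted p = 0.806) did not pass. Among DNA repair genes *Exo1* (-1.01 ± 0.09, adjusted p = 5.25e-07) was lower and *Atr* (0.61 ± 0.08, adjusted p = 1.95e-05) higher. Of the imprinted genes *Slc22a18* (1.55 ± 0.22, adjusted p = 2.69e-05) and *Sgce* (1.28 ± 0.17, adjusted p = 1.15e-05) were higher and *Zdbf2* (-1.11 ± 0.15, adjusted p = 1.41e-05) lower. Of the primordial germ cell genes 0 of 9 were higher and 5 lower in replicate 2, with *Ifitm3* (-1.18 ± 0.10, adjusted p = 1.50e-07) and *Nanos3* (-1.26 ± 0.37, adjusted p = 0.00911) among them. Oocyte genes had 2 higher and 1 lower of 6, actin and SRF-YAP targets 4 higher and 7 lower of 20, replication-dependent histones 4 higher and 2 lower of 34, blood and endothelial genes 1 higher and 2 lower of 4 and Y-linked genes 0 higher and 2 lower of 4. Of the histone genes 27 lay in the lowest quartile of level. Their counts ran from 0 to 14 higher and 2 to 7 lower over other models and scalings. The long noncoding RNA list had 0 members among the genes tested.

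The rest of the series, 1 Con and 1 OE library labelled D7, entered none of the comparisons above except the fits of all 6 libraries and those with 1 library left out, and its levels are given side by side. *Bnip3* was at 120.5 FPKM in Con-D7 and 90.0 in OE-D7, and *Ddit3* at 30.9 FPKM in Con-D7 and 41.7 in OE-D7. Both lay between the levels of the replicate 1 and the replicate 2 libraries. *Txnip*, at 367 FPKM in Con-D7 and 398 in OE-D7, and *Fos*, at 13.9 FPKM in Con-D7 and 21.4 in OE-D7, lay above all 4 libraries. *Ccnd1* was at 21.2 FPKM in Con-D7 and 15.5 in OE-D7, *Mat2a* at 100.3 FPKM in Con-D7 and 80.1 in OE-D7 and *Sall4* at 37.3 FPKM in Con-D7 and 33.2 in OE-D7. For *Ccnd1* and *Mat2a* these values lay between the replicate numbers. For *Klf2* they were 111 FPKM in Con-D7 and 73.9 in OE-D7, below all 4 libraries. No source used here explains the label.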

How the data were processed

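mRNA-seq of 4 of 6 mouse ESC libraries (Con-1, Con-2, OE-1, OE-2) was used, grouped by genotype and replicate number as labelled. The authors mapped BGISEQ-500 reads to mm10 with Bowtie2. The authors deposited RSEM estimated counts without normalization and FPKM values scaled for length and depth. HISAT and GRCm38.p6 appear in the submitters' processing notes, with versions not given in the sources used here. Of 19489 genes, 19340 matched RefSeq by gene number, 26 symbols turned into dates by a spreadsheet were restored, and 11 with no symbol were restored from RefSeq where it had one.

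Estimated counts (17514330 to 18176939 per library) were rounded and tested with edgeR 4.0.16 (TMM factors 0.95 to 1.05, quasi-likelihood F test, terms genotype and replicate number, 1 residual degree of freedom, R 4.3.3), with Benjamini-Hochberg adjustment over 13494 genes that averaged 0.5 FPKM or more, at a threshold of 0.05. The SE printed with a log2 fold change is its absolute value divided by the square root of the F statistic, worked back from the test and not fitted. Differences within a genotype are in log2 CPM with TMM factors and a prior count of 1. Alternatives used limma 3.58.1, DESeq2 1.42.0, other factors and filters, no genotype term, all 6 libraries and 1 library left out. The 46 gene lists and the members named were chosen with earlier results of these data known, and 4 lists after values were seen. The naming rule took *Dppa3*, the 12 largest increases and decreases and the 5 smallest p in each direction at 5 FPKM or more, the first 3 members of each list with up to 4 further members past the test at 1 FPKM or more, and the 5 widest gaps between genotypes. The text prints 189 genes, some that the rule took being not reported here, of which *Mycn*, *Nanog*, *Egln3* and *Actb* were picked after their values were seen. Lists were described by counts and medians and not tested as sets.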

Additional observations from a re-analysis of the deposited data

Results flagged for a closer look

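Some genes moved in opposite directions in the genotypes, and with 1 library per genotype and replicate number the difference was not tested. The 5 with the widest gaps at a mean of at least 5 FPKM were predicted genes, for which differences are in log2 CPM. *Gm14434* was at 11.9 FPKM in Con-1, 6.61 in OE-1, 0 in Con-2 and 11.2 in OE-2, and OE minus Con was 10.68. *Gm4724* was at 0.52 FPKM in Con-1, 10.7 in OE-1, 11.8 in Con-2 and 9.61 in OE-2, with a gap of -4.63. *Gm20765* was at 6.01 FPKM in Con-1, 1.05 in OE-1, 5.02 in Con-2 and 19.07 in OE-2, with a gap of 4.60. In each, 1 or more libraries stood far from the other library of its genotype. *Gm3317* (Con difference 0.39, OE difference -1.67, OE minus Con -2.06) and *Gm8764* (Con difference 1.17, OE difference -0.84, OE minus Con -2.01) had smaller gaps. Such predicted genes can have near-identical copies between which estimated counts shift, which was not tested here. Of the named genes that did not pass the test between replicates, 7 had opposite signs, with neither difference rounding to 0 and gaps under 1 log2 unit: *Sox2* (Con difference 0.01, OE difference -0.13, OE minus Con -0.13), *Tfap2c* (Con difference 0.24, OE difference -0.27, OE minus Con -0.50), *Dnmt3a* (Con difference -0.23, OE difference 0.01, OE minus Con 0.24), *Dnmt3l* (Con difference -0.08, OE difference 0.10, OE minus Con 0.18), *Dusp6* (Con difference -0.10, OE difference 0.46, OE minus Con 0.57), *Spry4* (Con difference -0.27, OE difference 0.32, OE minus Con 0.59) and *Mdm2* (Con difference -0.15, OE difference 0.10, OE minus Con 0.25). *Cox4i1* (Con difference 0.04, OE difference -0.00) was not counted among them. Groups of 4 or more libraries, which a check for a single outlying library needs, were not part of this comparison.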

How the results depend on the processing

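Of 3511 higher and 3425 lower genes, DESeq2 kept 1576 and 2032, all 3608 among the calls of the edgeR fit. With a mean FPKM of at least 10, chosen after seeing the data, 1776 and 1778 of 6663 genes passed. The median log2 fold change of these genes was 0.00, and 82.7% of the calls were shared with the edgeR fit. In the edgeR fit the upper 2 quartiles of level held more lower than higher calls (30.7% against 21.9% and 44.1% against 13.2%). The excess of lower calls among well expressed genes thus depends on which genes set the scale. Leaving out 1 library (from a fit of all 6, where 2891 and 2772 passed) gave 748 to 2213 higher and 726 to 2079 lower genes. Each such fit has 1 residual degree of freedom and takes the lone library to vary like the others. No gene was called in opposite directions by any of these alternatives and the edgeR fit. The other alternatives (RLE and upper-quartile factors, no filter, a mean FPKM of at least 1, limma-voom, limma on log2(FPKM + 0.5) and log2(FPKM + 0.1), no genotype term) kept both counts within 1.5 times. Of the 189 genes named, 169 kept direction and side of the threshold under DESeq2, 172 under upper-quartile factors, 178 with all 6 libraries and 119 to 155 with 1 library left out. Calls were lost for 52 of them without Con-1, 61 without Con-2, 30 without OE-1 and 25 without OE-2. The sign of the log2 fold change turned in some genes, and the cause was not tested. With 1 library left out it ran from -2.06 to 0.92 for *Dppa3*, -0.24 to 0.02 for *Klf4*, -0.19 to 0.06 for *Sox2*, -0.66 to 0.20 for *Otx2*, -0.27 to 0.24 for *Tfap2c*, -0.25 to 0.02 for *Dnmt3a*, -0.17 to 0.19 for *Dnmt3l*, -0.13 to 0.49 for *Dusp6*, -0.48 to 0.50 for *Spry4*, -1.20 to 0.11 for *Lefty2*, -0.10 to 0.00 for *Ndufa2*, -0.03 to 0.06 for *Cox4i1*, -0.26 to 0.20 for *Mdm2*, -12.97 to 0.67 for *Gm14434*, -0.32 to 4.59 for *Gm4724*, -1.92 to 0.61 for *Gm3317*, -0.78 to 1.11 for *Gm8764*. It turned with mean FPKM of at least 10 to 0.00 for *Klf4*, 0.05 for *Sox2*, 0.10 for *Tfap2c*, 0.06 for *Ndufa2*, 0.10 for *Atp5a1*, 0.08 for *Acaca*, 0.09 for *Mdm2*, 0.09 for *Srsf11*. It turned with upper quartile factors to 0.03 for *Sox2*, 0.08 for *Tfap2c*, 0.04 for *Ndufa2*, 0.08 for *Atp5a1*, 0.06 for *Acaca*, 0.06 for *Mdm2*, 0.06 for *Srsf11*. It turned with limma on log2(FPKM + 0.5) to 0.04 for *Sox2*, 0.07 for *Tfap2c*, 0.05 for *Ndufa2*, 0.09 for *Atp5a1*, 0.06 for *Acaca*, 0.03 for *Mdm2*, 0.07 for *Srsf11*. It turned with limma on log2(FPKM + 0.1) to 0.04 for *Sox2*, 0.07 for *Tfap2c*, 0.05 for *Ndufa2*, 0.09 for *Atp5a1*, 0.07 for *Acaca*, 0.03 for *Mdm2*, 0.07 for *Srsf11*. It turned with no filter on FPKM to -0.02 for *Dnmt3l*, -0.01 for *Spry4*, -0.02 for *Cox4i1*. It turned with mean FPKM of at least 1 to 0.00 for *Atp5a1*. It turned with limma-voom to -0.06 for *Gm8764*. It turned with no genotype term to -0.13 for *Gm8764*. Of these genes, *Lefty2* and *Gm4724* had passed the test in the edgeR fit and the rest had not. No paired analysis was possible because the replicate number is itself the quantity compared, and genotype was the other term of the fit. With 1 library per genotype and replicate number, a difference that depends on genotype cannot be told from error. Depth of 17514330 to 18176939 counts per library leaves genes near 0.5 FPKM on few reads.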
